A study of Mus musculus with 10 samples.

Results

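The immediate early genes were followed across the cell classes of mouse mammary tumors: Fos, Fosb, Jun, Junb, Jund, Egr1, Atf3, Nr4a1, Ier2 and Dusp1. These 10 genes of 31053 in the deposited tables were selected on values of the same libraries, namely their level in endothelial and stromal cells against tumor and T cells, between the batches named in the labels and between genotypes. The class and batch contrasts are therefore given as descriptions. For the genotype contrast, p-values of the members come from the same libraries that had a part in choosing them. They are no independent support. E0771 mammary carcinoma cells had been injected in female C57BL/6 mice at an age of 16 weeks, in the mammary fat pad, and the tumors were taken after 21 days, dissociated with enzymes and profiled by 10x 3' single-cell RNA sequencing. EC-AGO1-KO mice (KO) carried floxed AGO1 and a Cre driven by the VE-Cadherin (Cdh5) promoter, which acts in endothelial cells, and WT mice were their littermates. The injected line was the same in both genotypes, so the deletion lay in host cells. There was a library of each genotype in batch 1, while batch 2 comprised WT 1, WT 3, WT 4, WT 5, KO 1, KO 2+3, KO 4 and KO 5+6, where KO 2+3 and KO 5+6 pooled 2 tumors each.

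Immediate early genes are switched on within minutes of a growth factor, stress or calcium signal, without the need for new protein. MAP kinases and related pathways act on factors such as SRF with its ELK partners and CREB, which already sit at these promoters. Fos and Jun family proteins pair to form AP-1, Egr1 is a zinc finger transcription factor, Atf3 is a stress-induced member of the ATF family, Nr4a1 is an orphan nuclear receptor, Ier2 is a small nuclear protein, and Dusp1 is a phosphatase that switches MAP kinases off. The same genes are known to respond to tissue dissociation.

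The sequences around the start sites were searched for a half-site of the kind that CREB binds and for the SRF element. A window of 300 bases around the start was matched in RefSeq (GRCm38.p6) for 8 of the 10 genes, all but Egr1 and Ier2. The half-site TGACG or its reverse complement CGTCA was found in 6 of the 8 windows and in 20.8% of all 32851 windows. The CArG box, the element that SRF binds, was found in 0 of the 8 windows and in 1.63% of all windows. Sites more than 250 bases before the start, and any of Egr1 and Ier2, lay outside the search. The 150 bases before the start of the 6 genes with a half-site are shown 5′ to 3′ on the gene's strand, with the half-sites in capitals.
Fos (chr12:85473740-85473889, plus strand): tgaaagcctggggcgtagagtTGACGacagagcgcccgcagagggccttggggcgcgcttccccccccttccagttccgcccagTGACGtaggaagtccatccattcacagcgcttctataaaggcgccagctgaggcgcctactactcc
Fosb (chr7:19310046-19310195, minus strand): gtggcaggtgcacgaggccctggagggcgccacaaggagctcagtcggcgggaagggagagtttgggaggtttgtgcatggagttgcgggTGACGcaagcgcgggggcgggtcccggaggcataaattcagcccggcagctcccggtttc
Junb (chr8:84978749-84978898, minus strand): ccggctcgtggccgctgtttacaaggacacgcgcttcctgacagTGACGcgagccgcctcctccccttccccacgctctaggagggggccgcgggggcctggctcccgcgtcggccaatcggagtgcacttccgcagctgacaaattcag
Atf3 (chr1:191183334-191183483, minus strand): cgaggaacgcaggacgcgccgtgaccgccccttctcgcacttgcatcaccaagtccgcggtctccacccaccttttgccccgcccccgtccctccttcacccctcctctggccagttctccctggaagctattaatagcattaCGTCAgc
Nr4a1 (chr15:101266696-101266845, plus strand): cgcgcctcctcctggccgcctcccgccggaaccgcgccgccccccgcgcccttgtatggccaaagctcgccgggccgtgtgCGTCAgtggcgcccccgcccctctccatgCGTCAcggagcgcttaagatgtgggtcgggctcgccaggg
Dusp1 (chr17:26508473-26508622, minus strand): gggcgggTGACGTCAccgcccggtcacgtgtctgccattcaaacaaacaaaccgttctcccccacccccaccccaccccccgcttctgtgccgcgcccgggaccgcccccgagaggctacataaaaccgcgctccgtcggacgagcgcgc
Dusp1 was the only one of the 8 with the full palindrome TGACGTCA, which 1.79% of all windows held and which counts as both half-sites. Nr4a1 had 4 half-sites in its window of 300 bases, 2 of them in the bases shown. The windows of Jun and Jund held no half-site. That of Jund surrounds a RefSeq start upstream of the start of the gene in GENCODE, with its 150 bases before the start at chr8:70697589-70697738, and so does not cover the GENCODE start. Jun, Jund and Ier2 lie at chr4:95049034-95052222 (Jun, minus strand), chr8:70698949-70700616 (Jund, plus strand) and chr8:84661331-84662852 (Ier2, minus strand) of GRCm38 in GENCODE M21. The motif matches describe these windows and are no measure of binding.

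The values are UMIs, that is counted molecules, summed over the cells of a class in a library and scaled to a total of 1000000 UMIs (CPM), with Actb left out of the totals because it took 1.99 to 2.27% of UMIs in batch 1 and 8.77 to 16.97% in batch 2. In all, 65298 barcodes passed, with a median of 4049 and 3862 UMIs a cell in batch 1 and of 595 to 1142 in batch 2, and 492 barcodes of batch 2 occurred in more than 1 of its libraries. Class names rest on marker genes: the endothelial-like cluster of 214 cells was led by Cdh5, Flt1 and Igfbp3, and 12 of 12 endothelial markers, among them Pecam1, Kdr and Cldn5, stood above the other cells. Batch 1 gave 7 endothelial-like cells per genotype, below the 10 that a class needed in a library. Ago1 itself was read 0 times in endothelial-like cells of either genotype. A count of 0 leaves room for 47.0 CPM in WT and 33.7 CPM in KO cells, so the deletion could not be checked there.

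Endothelial-like cells stood well above tumor-like cells in the summed level of the 10 genes. In batch 2 the summed level in endothelial-like cells was 403, 2713, 2246 and 1229 CPM in WT 1, WT 3, WT 4 and WT 5 and 3338, 2358, 2074 and 3181 CPM in KO 1, KO 2+3, KO 4 and KO 5+6. WT 1 was far below the other libraries, with 4 UMIs of the 10 genes among 9928. In tumor-like cells of the same libraries the sum was 328, 491, 512 and 515 CPM in WT and 529, 710, 524 and 728 CPM in KO. The endothelial-like level was higher in 8 of 8 libraries, on average by 1.83 ± 0.75 (SD, n = 8 libraries) on the log2 scale, or 3.56-fold. Against T-like cells it was 1.34 ± 0.84 higher on the log2 scale and higher in 7 of 8 libraries, the exception being WT 1.

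**Figure D1:**
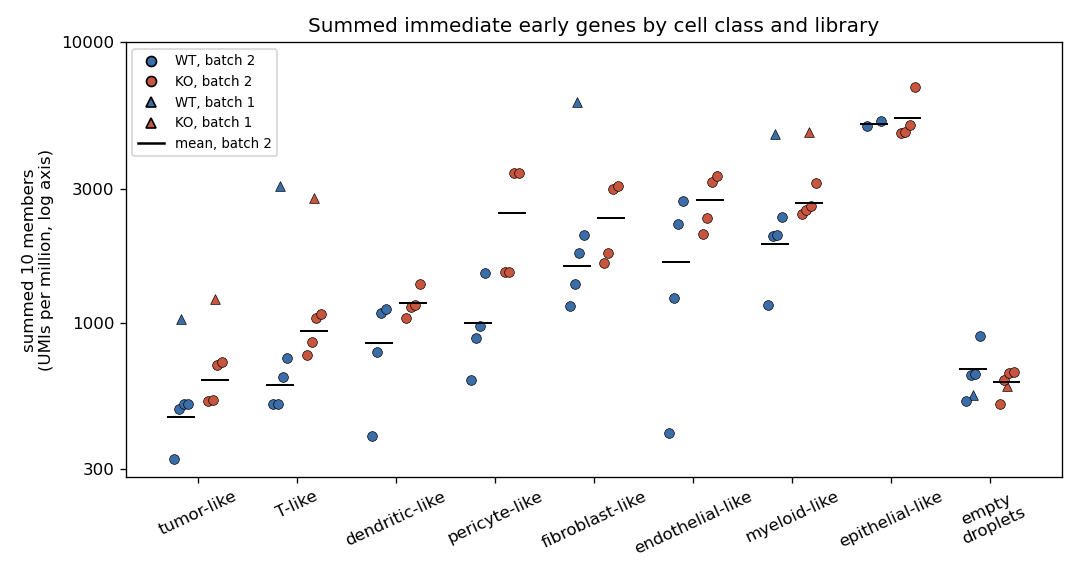
Summed level of the 10 genes in CPM (log axis) for each cell class and for empty droplets; each point is 1 library, colour gives the genotype, triangles are batch 1, and bars are means over batch 2 libraries. The 6 epithelial-like points lie at 4757 CPM or more, tumor-like points of batch 2 at 728 CPM or less, and the batch 1 triangles of tumor-like, T-like, fibroblast-like and myeloid-like cells lie above all batch 2 points of the class.

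Endothelial-like cells did not stand alone. In batch 2 the summed level was 5303 ± 821 CPM (SD, n = 6 libraries) in epithelial-like cells, 2295 ± 576 (n = 8) in myeloid-like cells, 2193 ± 981 (n = 8) in endothelial-like cells, 1979 ± 708 (n = 8) in fibroblast-like cells and 1733 ± 1094 (n = 8) in pericyte-like cells. The ranges of the last 4 overlapped, so their order lies within the spread between libraries. Epithelial-like cells, which expressed Epcam, Krt18 and Gata3, were above every other class in the lowest of their libraries. Below them came dendritic-like cells at 1012 ± 296 CPM, T-like cells at 768 ± 215 and tumor-like cells at 542 ± 127 (n = 8 each). Empty droplets, the barcodes with at most 50 UMIs that carry free RNA, held 512 to 899 CPM in batch 2, at or above most tumor-like values, so a tumor-like sum of this size cannot be told apart from free RNA by its level alone. The estimated share of free RNA was 5.66 to 8.71% in tumor-like cells of batch 2 and ran from 0 to 100% in the few endothelial-like cells. Empty droplets had a lower sum than endothelial-like cells of the same library in all of batch 2 but WT 1 (652 against 403 CPM). Subtracting free RNA, given among the processing alternatives, could thus hardly lower the endothelial-like excess over tumor-like cells. A part of free RNA in that excess was not tested.

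Fos had the largest mean difference in CPM between endothelial-like and tumor-like cells of the 10 genes, followed by Egr1. Fos in endothelial-like cells was 101, 950, 561 and 112 CPM in the WT libraries WT 1, WT 3, WT 4 and WT 5 and 1002, 611, 461 and 1018 CPM in KO 1, KO 2+3, KO 4 and KO 5+6. WT 1 and WT 5 held 1 and 2 Fos UMIs, and the other 6 libraries 3 to 18. Tumor-like cells had 21.8 to 91.0 CPM of Fos in batch 2, below the endothelial-like value in 8 of 8 libraries. The mean ratio was 7.49-fold on log2(CPM + 10), a scale that understates the change of low genes. Fos averaged 2038 ± 608 CPM in epithelial-like cells (n = 6), 659 ± 175 in myeloid-like cells, 564 ± 360 in pericyte-like cells, 432 ± 240 in fibroblast-like cells and 109 ± 32.5 in T-like cells (n = 8 each). Fosb, whose protein pairs with Jun as Fos does, followed another order: it was high in epithelial-like (575 ± 236 CPM), fibroblast-like (319 ± 129) and pericyte-like cells (301 ± 232) and low in myeloid-like (85.1 ± 66.8), T-like (71.8 ± 39.5) and tumor-like cells (65.7 ± 32.4). In endothelial-like cells it averaged 202 ± 167 CPM and had no UMI in WT 1 or WT 5.

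Egr1 divided the classes most sharply. It averaged 866 ± 289 CPM in epithelial-like, 384 ± 284 in endothelial-like, 250 ± 107 in fibroblast-like and 196 ± 177 in pericyte-like cells, against 34.5 ± 25.4 in myeloid-like, 11.2 ± 8.47 in T-like and 1.25 ± 0.70 in tumor-like cells. In endothelial-like cells the libraries ran from 0 of 9928 UMIs in WT 1, compatible with at most 302 CPM, to 922 CPM in KO 4. In tumor-like cells the highest library of batch 2 had 2.29 CPM, below the 7.97 to 21.9 CPM of empty droplets. Tumor-like cells of WT 1 gave 0 Egr1 UMIs among 6324984, a limit of 0.474 CPM. Intervals and limits of this kind cover counting error only. Egr1 was among the 10 leading genes of the epithelial-like cluster although it had been kept out of the genes used for clustering.

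Within the Jun family the members differed. Jun was 264 ± 196 CPM in endothelial-like, 314 ± 100 in fibroblast-like, 260 ± 157 in myeloid-like and 598 ± 220 in epithelial-like cells, and 99.6 ± 22.1 in tumor-like cells. Junb was 188 ± 82.6 CPM in endothelial-like cells and 59.7 ± 11.5 in tumor-like cells, higher in 8 of 8 libraries and 2.65-fold on average. Jund, which is known to be present in many resting cells, showed no such excess: it averaged 52.4 ± 76.2 CPM in endothelial-like and 84.8 ± 12.1 in tumor-like cells and was higher in endothelial-like cells in 2 of 8 libraries.

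The stress factor, the nuclear receptor and the phosphatase had their highest means in myeloid-like cells. Dusp1 averaged 652 ± 263 CPM there, 354 ± 190 in endothelial-like, 270 ± 110 in fibroblast-like and 125 ± 34.9 in tumor-like cells. Atf3 averaged 145 ± 70.3 CPM in myeloid-like and 91.1 ± 117 in endothelial-like cells, where 3 of the 8 libraries had no UMI. Nr4a1 averaged 90.7 ± 62.5 CPM in myeloid-like and 50.6 ± 21.8 in T-like cells, in which it is known to rise after T cell receptor signals. Nr4a1 and Ier2 had a UMI in 2 of the 8 endothelial-like libraries each, so no level can be set for either there. Ier2 was highest in epithelial-like cells at 162 ± 95.9 CPM and was 46.4 ± 46.6 CPM or less in the other classes shown.

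**Figure D2:**
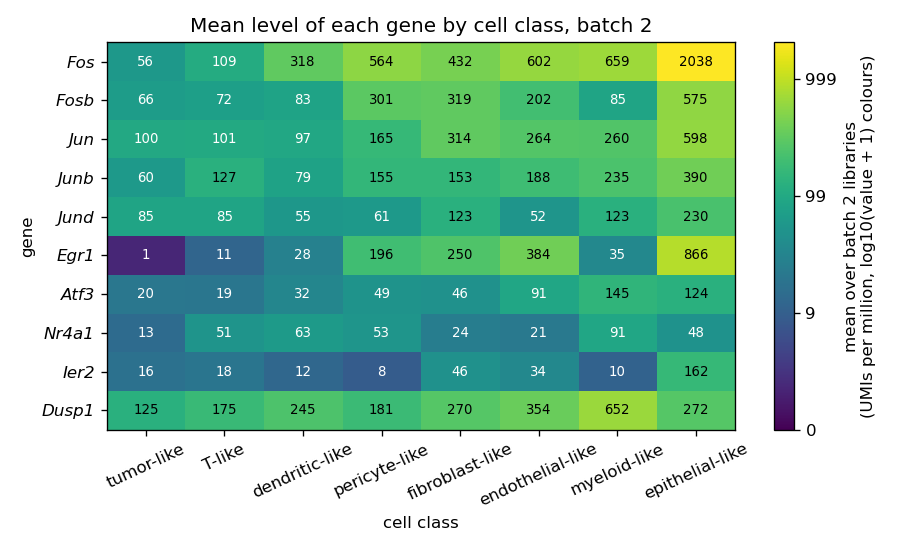
Mean level of each gene (rows) in each cell class (columns) over the batch 2 libraries with at least 10 cells, in CPM, printed in the cells and coloured on a log scale. The Egr1 row runs from 1 CPM in tumor-like to 866 CPM in epithelial-like cells, while the Jund row stays between 52 and 230 CPM.

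Counted over genes with a mean of at least 50 CPM, 4 of the 8 members with that level were at least 2-fold higher in endothelial-like than in tumor-like cells, against 8.88% of 3602 genes, and their median log2 difference was 1.00 against -0.74 over all. The same count was 3 of 7 in pericyte-like cells (9.31% of genes), 6 of 8 in fibroblast-like cells (9.54%), 6 of 8 in myeloid-like cells (17.3%) and 8 of 9 in epithelial-like cells (12%, all against tumor-like cells), and 2 of 8 for endothelial-like against T-like cells (7.18%). These shares stand beside contrasts that had a part in choosing the members and are given for scale. The log2 differences are on CPM + 10, where a gene without a UMI in a small class takes a low value. That can lower the median over all genes.

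A cell showed few of these molecules, so shares of cells were compared after each cell was thinned to 300 UMIs, leaving out shallower cells. Cells were pooled over the libraries of both genotypes, so the shares carry no spread between libraries. More of the endothelial-like and T-like cells came from KO libraries, and more of the tumor-like cells from WT libraries. In batch 2, 33.5% of endothelial-like cells then had a UMI of any member and 11.6% had UMIs of 2 or more members, with 45 of 200 cells too shallow (46.5% with any member before thinning). Tumor-like cells had 12.3% and 1.03% (28.6% before thinning, at a median of 709 UMIs against 438 in endothelial-like cells), and T-like cells 19.9% and 2.50%. Epithelial-like cells had 62.7% and 33.0%. Thinned shares thus ranked endothelial-like over T-like and tumor-like cells, although their unthinned depth was lower than that of tumor-like cells. For Egr1 the thinned share was 9.03% in endothelial-like and 0.0396% in tumor-like cells.

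A wider set of 40 further early response genes was read for the same contrast. Of 16 with a mean of at least 50 CPM in endothelial-like and tumor-like cells, 2 were at least 2-fold higher in endothelial-like cells, near the 8.88% of all genes, and the median log2 difference was -0.27 against -0.74 over all. Their difference from the members was not tested. The medians are on log2(CPM + 10), where 1 UMI was 187 CPM in endothelial-like cells of WT 4, so libraries without a UMI lower them. Summed, the 40 genes had 2433 to 6362 CPM in endothelial-like and 2266 to 3176 CPM in tumor-like cells of batch 2. The endothelial-like sum was the lower one in WT 4 alone (2433 against 3176 CPM). Pim1 had the highest mean of the 40 in both classes. The 5 with the most UMIs in endothelial-like cells were Pim1, a kinase, at 1535 ± 680 CPM against 911 ± 280 in tumor-like cells, Klf6 at 301 ± 181 against 223 ± 44.4, Rhob, a small GTPase, at 272 ± 94.6 against 310 ± 52.6, Btg2, an antiproliferative gene, at 274 ± 198 against 9.90 ± 2.40, and Klf4 at 242 ± 280 against 37.5 ± 9.14 (n = 8 libraries each). Of these 5, all but Rhob had a higher mean in endothelial-like cells. In myeloid-like cells 10 of 18 such genes were at least 2-fold above tumor-like cells, against 17.3% of all genes. Of 16 receptors, kinases and factors upstream of the members, 1 was at least 2-fold higher in endothelial-like than in tumor-like cells, and of 8 heat shock genes 1 was, with medians of -0.36 and -1.13, against 8.88% and -0.74 over all genes. These medians have the same limit. Summed, the heat shock genes had 1108 to 2446 CPM in endothelial-like and 1601 to 2163 CPM in tumor-like cells of batch 2.

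Over 75 points of 1 class in 1 library, the member closest to the sum was Fos (Pearson r = 0.83), ahead of Egr1 (0.75), Junb (0.70) and Jun (0.64), and Nr4a1 was the least close (0.35). Each member was part of that sum. Against the sum of the other 9 genes r was 0.72 for Fos, 0.69 for Egr1, 0.60 for Junb, 0.57 for Jun and 0.31 to 0.49 for the other members. Among genes outside the lists, the 8 with the highest r were Glul (0.59), App (0.59), Lifr (0.59), Pmepa1 (0.57), Plcb1 (0.52), Cd81 (0.52), Pmp22 (0.51) and Igfbp5 (0.51). Glul, App and Lifr thus lay above 6 of the 10 members and below the 4 leading ones with the member in the sum, and all 8 lay above those 6 members with it left out. The points share libraries and depth, and these values describe likeness of pattern alone.

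The batches differed in the members in every class where both could be read. The summed level in tumor-like cells was 1031 CPM in the WT and 1214 CPM in the KO library of batch 1, above all 8 libraries of batch 2, and higher by 1.08 on the log2 scale (SD of batch 2 libraries 0.36). In myeloid-like cells it was 4704 and 4809 CPM in batch 1, higher by 1.10 on the log2 scale (SD 0.43). In T-like cells it was 3069 and 2776 CPM in batch 1 against 511 to 1076 CPM in batch 2. In fibroblast-like cells the 11 cells of the WT library of batch 1 had 6125 CPM. The 7 endothelial-like cells of each batch 1 library had 3484 CPM in WT (95% Poisson interval 2767 to 4330) and 3034 CPM in KO (2451 to 3712), near the upper batch 2 values, but were too few for a ratio.

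The genes behind the batch difference changed with the class. In T-like cells Junb was 1667 and 1384 CPM in batch 1 and 64.9 to 236 CPM in batch 2, a mean difference of 3.60 on log2(CPM + 10), and Jund and Ier2 followed with 2.63 and 3.46. Fos was lower in batch 1 in those cells (-0.43, SD of batch 2 libraries 0.37). In tumor-like cells Jun (1.43), Junb (1.31), Jund (1.54) and Ier2 (1.91) were higher in batch 1, whereas Fosb was lower on average (-0.44, SD 0.67) and Egr1 stayed at or under 2.37 CPM in both. In myeloid-like cells Ier2 (3.39), Junb (2.17) and Egr1 (2.10) had the largest differences and Dusp1 the smallest (0.20). Genes at least 2-fold higher in batch 1 made up 22.3% of genes in tumor-like, 26.3% in myeloid-like and 23.2% in T-like cells, beside 4 of 7, 6 of 10 and 4 of 8 members. In tumor-like cells 4 of 7 heat shock genes were also at least 2-fold higher in batch 1, with a median of 2.03 on the log2 scale. Batch 1 and batch 2 differed in the NovaSeq model used, in UMIs per cell and in median mitochondrial share (2.70 to 2.77% against 0.158 to 0.613%), and these cannot be told apart. Tumor-like, T-like and myeloid-like cells of the batches were also held by different clusters: 1 tumor-like cluster of 932 cells came from batch 1 alone, and each of the other tumor-like clusters held 0 to 2 cells of batch 1.

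**Figure D3:**
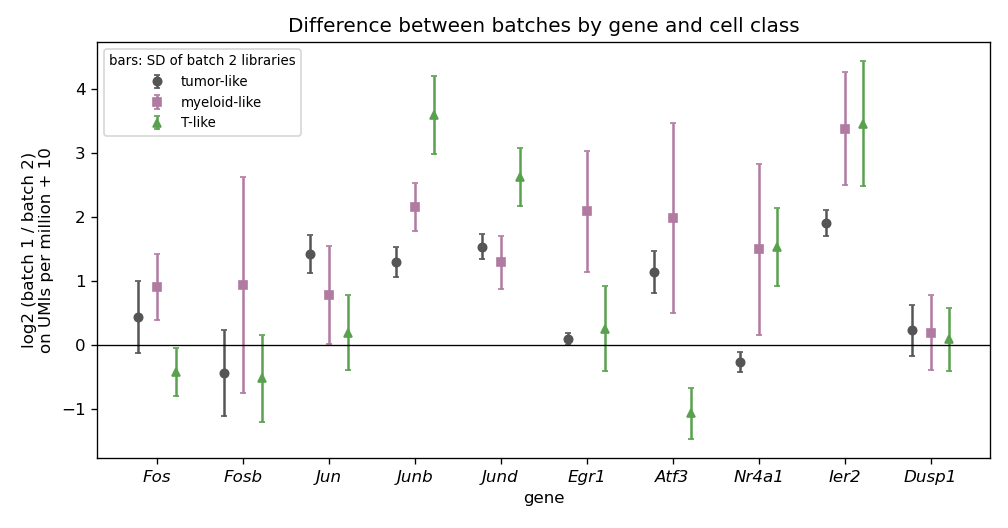
Difference between batch 1 (2 libraries) and batch 2 (8 libraries) for each gene, as the difference of mean log2(CPM + 10), in tumor-like, myeloid-like and T-like cells; bars are the SD of the batch 2 libraries. Junb, Jund and Ier2 lie above 1 in all of these classes, Dusp1 lies near 0 and Fosb is below 0 in tumor-like and T-like cells.

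Between genotypes, the members were on average higher in KO tumors, no member passed the test, and the difference in tumor-like cells was smaller without 3 extreme libraries. The summed level in tumor-like cells of batch 2 did not overlap between genotypes, at 328 to 515 CPM in WT and 524 to 728 CPM in KO, but WT 5 and KO 4 were only 515 and 524 CPM. Within batch, KO exceeded WT by 0.40 on the log2 scale, with an SD of 0.29 between libraries of 1 genotype. WT 1 was the lowest library and the pooled libraries KO 2+3 and KO 5+6 were the highest. Without these 3 the difference was 0.11. They were chosen after seeing the data and lie at the extremes of their genotypes, so leaving them out had to lower the difference. WT 1 was also the lowest of the tumor-like libraries in the 40 further early response genes (2266 CPM against 2517 to 3176 in the others of batch 2) and in heat shock genes (1601 CPM against 1727 to 2163). Their part in the result was not tested. Empty droplets had 527 to 899 CPM in WT and 512 to 666 CPM in KO libraries of batch 2, where 899 CPM was WT 4 and the other WT libraries had at most 658 CPM. A part of free RNA in the genotype difference was not tested.

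By edgeR's quasi-likelihood test with batch as a term, 0 of 9 members tested in tumor-like cells had an adjusted p under 0.05, as for 0% of 11482 genes, while Egr1 was too low to be tested. All 9 fold changes were above 0. Without the 3 libraries, a choice that favours lower values, 6 of the 9 were below 0. Fosb was 18.3, 55.6, 52.4 and 48.6 CPM in the WT libraries and 60.4, 117, 64.3 and 109 CPM in the KO libraries of batch 2, and 33.6 and 50.1 CPM in batch 1. Every KO library was thus above every WT library within batch, with a log2 fold change of 0.88 ± 0.26 (SE) and an adjusted p of 0.881 over 10 libraries. Without the 3 libraries it was 0.29 ± 0.15, a change of over 1.5 times, and without the low-count filter it passed with an adjusted p of 1.03e-05, as did 38 of 26519 genes (0.143%), 22 of which were higher in KO (0.083%). Junb was 46.0 to 52.8 CPM in WT and 56.8 to 75.6 CPM in KO libraries of batch 2 (log2 fold change 0.33 ± 0.12, adjusted p 0.881). Dusp1 overlapped between genotypes, at 74.6 to 124 CPM in WT and 119 to 171 CPM in KO (0.42 ± 0.16, adjusted p 0.881). Unadjusted, these 3 members had a p under 0.05 and were higher in KO, a state shared by 2.51% of genes, and 2 of the 9 did not overlap in batch 2, as for 2.43% of genes. Fos ran from 21.8 to 79.8 CPM in WT and from 42.2 to 91.0 CPM in KO (0.48 ± 0.28). Its fold change without the 3 libraries was -0.068.

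**Figure D4:**
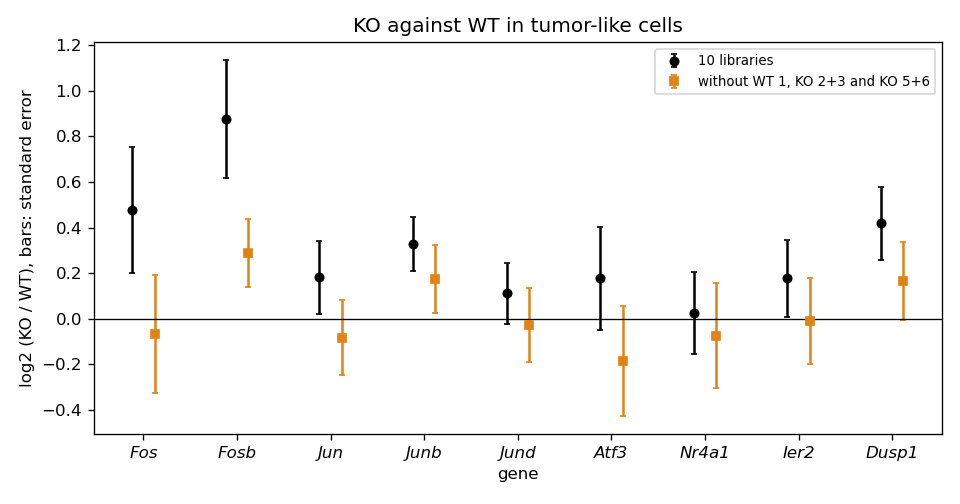
Log2 fold change of KO over WT in tumor-like cells for the 9 tested members, from edgeR; points are fitted values and bars standard errors, in black for all 10 libraries and in orange without WT 1, KO 2+3 and KO 5+6. Fosb falls from 0.88 to 0.29, and Fos, Jun, Jund, Atf3, Nr4a1 and Ier2 lie at or below 0 without the 3 libraries. These 3 were chosen after seeing the data, as the extremes of their genotypes, which favours lower values.

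Most of the tumor-like clusters had a higher mean in KO. In 9 of the 10 clusters with at least 10 cells in each of the 8 libraries of batch 2, the KO mean of the summed level was above the WT mean, from 472 against 433 CPM in the cluster led by Tubb5 and Pdcd4 to 606 against 406 CPM in the largest, led by Lncpint. Genotypes did not overlap in 1 of the 10, the largest. The cluster led by Ccl2 and Nfkbia had 549 ± 81.7 CPM in WT and 726 ± 115 CPM in KO (n = 4 each), and the one led by the interferon genes Usp18 and Ddx60 had 394 ± 97.6 and 589 ± 119 CPM. These clusters share libraries and are not separate evidence.

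Over whole libraries, with all cells summed, 0 of the 10 members passed (0% of 12450 genes), all 10 fold changes were above 0, and 5 had an unadjusted p under 0.05 and were higher in KO, against 5.61% of genes. Fosb, Junb and Egr1 did not overlap in batch 2, against 3.82% of genes. Egr1, at 2.15 to 7.36 CPM in WT and 9.94 to 20.6 CPM in KO libraries of batch 2, had a log2 fold change of 1.10 ± 0.30 and an adjusted p of 0.459. Such a sum mixes the number of cells of a class that carries Egr1 with the Egr1 level in them. KO libraries held 16 to 186 epithelial-like cells in batch 2, and WT libraries 8 to 78. These cells gave 98 of the 124 Egr1 UMIs of KO 1, 20 of 68 of KO 2+3, 9 of 54 of KO 4 and 56 of 110 of KO 5+6. In WT 1, WT 3, WT 4 and WT 5 they gave 4 of 15, 4 of 40, 17 of 38 and 16 of 45. Within epithelial-like cells Egr1 was 406 and 838 CPM in WT 4 and WT 5 and 755 to 1286 CPM in KO, which overlapped. Without the low-count filter Egr1, Fosb and Fos passed, with adjusted p of 7.75e-06, 6.75e-06 and 0.0188, as did 242 of 27390 genes (0.884%), 207 of which were higher in KO (0.756%).

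Endothelial-like cells, the class with the deletion, gave too few molecules for a test of the members. In this class 0 of the 10 passed the low-count filter, and 0 of the 176 genes that did were called, with 14 at an unadjusted p under 0.05. The summed level was 1648 ± 1036 CPM in WT and 2738 ± 617 CPM in KO (n = 4 each, batch 2), and the genotypes overlapped. The difference was 1.03 on the log2 scale with an SD of 0.91 between libraries of 1 genotype, and 0.46 without WT 1. In the fit without the filter, Fos was higher in KO by 1.47 ± 0.51, Egr1 by 1.69 ± 0.61 and Fosb by 2.00 ± 0.85 (log2 ± SE), each with an adjusted p of 0.579, and Dusp1 by 0.02 ± 0.58. In that fit 0 of 10208 genes were called, 280 had an unadjusted p under 0.05, and the median over all genes was 0.29. In batch 1, with 7 cells each, WT was the higher one at 3484 against 3034 CPM, within the intervals given above.

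Neighbouring classes differed in how far the genotypes lay apart. Pericyte-like cells had 624, 1501, 881 and 977 CPM in WT 1, WT 3, WT 4 and WT 5, and 1522, 3435, 1515 and 3408 CPM in KO 1, KO 2+3, KO 4 and KO 5+6. The genotypes did not overlap, although WT 3 at 1501 and KO 4 at 1515 CPM were close, and 0 of the 10 members passed the low-count filter in this class. In the same order, these sums rested on 13, 22, 12 and 31 UMIs in WT and 19, 52, 25 and 91 UMIs in KO. The 95% Poisson intervals of WT 3 (940 to 2272 CPM) and KO 4 (981 to 2237 CPM) nearly coincided. The estimated share of free RNA here was 49.1 to 100% in batch 2, and the pooled libraries KO 2+3 and KO 5+6 had the highest sums. In fibroblast-like cells WT had 1148 to 2052 CPM and KO 1639 to 3069 CPM, which overlapped, with KO 2+3 and KO 5+6 again the highest. Fosb was 146 to 298 CPM in WT and 320 to 544 CPM in KO libraries of batch 2 in fibroblast-like cells, without overlap, with a log2 fold change of 0.94 ± 0.33 and an adjusted p of 0.727. It was 1 of 2 members with an unadjusted p under 0.05 there among 5 tested, against 2.31% of genes, the other being Dusp1, and 0 of 5 passed the test (0% of 911 genes).

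Immune cells had higher sums in KO in batch 2, with no member past the test. T-like cells had 511 to 747 CPM in WT and 767 to 1076 CPM in KO libraries of batch 2, while in batch 1 the WT library was the higher one, at 3069 against 2776 CPM. The estimated share of free RNA in T-like cells of batch 2 was 23.1 to 60.6%. WT 1 and WT 4, at 512 and 511 CPM, were below their own empty droplets at 652 and 899 CPM. Of 5 members tested in T-like cells 0 passed (0% of 2635 genes), and their fold changes ran from 0.21 for Jun to 0.54 for Fos. Without the same 3 libraries, chosen after seeing the data, that of Junb was -0.086, against 0.48 with them. Myeloid-like cells had 1157 to 2390 CPM in WT and 2448 to 3147 CPM in KO libraries of batch 2, and 4704 and 4809 CPM in batch 1. In these cells 0 of 5 members passed, while 2 of 1335 genes did (0.15%), and Junb had a log2 fold change of -0.000289 ± 0.22. Dendritic-like and epithelial-like cells overlapped between genotypes, the latter with 2 WT libraries of at least 10 cells. WT 1 had the lowest sum in 5 of the 7 classes with 8 libraries in batch 2, tumor-like, myeloid-like, dendritic-like, endothelial-like and pericyte-like, and the second lowest in the other two.

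The genes around the members were also compared between genotypes. In tumor-like cells 0 of 35 tested genes of the wider early response set passed, and 3 had an unadjusted edgeR p under 0.05 and were higher in KO. Over all genes 288 of 11482 (2.51%) were higher and 313 lower in KO at that limit. The median log2 fold change of the wider set was 0.12, against 0.18 for the 9 members and 0.00 for all genes. Of 26 upstream genes 0 passed and 1 had an unadjusted p under 0.05, lower in KO. Of 9 heat shock genes 0 passed and 2 had an unadjusted p under 0.05, both lower in KO, with a median of -0.01.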

How the data were processed

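The 10 libraries of dissociated E0771 tumors were analysed from unnormalized UMI counts per gene and barcode. Per the labels, the deposited counts were made by the authors with Cell Ranger 7.1.0 on mm10, and the tables hold all barcodes before cell calling. The 10 members and all gene lists were chosen with earlier results of these data known. The labels do not say whether libraries of 1 group are separate animals in every case, so p-values measure the spread between libraries.

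Cells were barcodes in which 200 to 7000 genes were detected and mitochondrial UMIs made up 10% or less. Cells were clustered with scanpy 1.11.5 and the Leiden algorithm (2000 variable genes, 30 components, 15 neighbours, resolution 1), and cells outside tumor-like clusters once more. The members, the wider early response genes, Actb and Ago1 were kept out of the clustering. Clusters were named from marker lists, at least 3 markers being 2-fold higher. The rules for mixed, shallow and hemoglobin-rich clusters were set after clusters, but not genotype values, had been seen, and 3106 cells stayed unnamed. No doublet caller was run. Clusters mixing leading genes of 2 classes were among those left unnamed.

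UMIs were summed per library and class (at least 10 cells). Class and batch differences are means of log2 values without a test. KO and WT were compared with edgeR 4.0.16 (quasi-likelihood, TMM, filterByExpr, batch term, Benjamini-Hochberg over all genes tested). On simulated counts with 200 genes changed 2-fold, 82.0% were recovered in tumor-like cells (11482 genes) and 76.0% in whole libraries (12450 genes). In endothelial-like cells, with 35 of 176 genes changed 2-fold, 51.4% were recovered. Where fewer genes change, the adjusted threshold is stricter, so these shares do not give the chance of calling a member. DESeq2 1.42.0 and the other alternatives are described with the results. Named outside the members are the 5 wider early response genes with the most endothelial-like UMIs and the 8 genes closest in pattern. Same-numbered libraries of batch 2 did not deviate together (r = -0.22 and -0.25), so the numbers were not taken as pairs. The libraries held 8323896 to 10591577 UMIs in all; classes with few cells are the least precise.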

Additional observations from a re-analysis of the deposited data

Results flagged for a closer look

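A library is listed here where it stood far from the others of its genotype in batch 2, by the gap to its nearest neighbour over the range of the 4 libraries. Of 35 such groups examined 4 were listed, and chance alone lists about 1 in 20. The summed members in whole libraries were 354 CPM in WT 1 against 546 to 576 CPM in the other WT libraries. In tumor-like cells the sum was 328 CPM in WT 1 against 491 to 515 CPM. In epithelial-like cells it was 6938 CPM in KO 5+6 against 4757 to 5082 CPM in the other KO libraries. Jund in tumor-like cells was 70.1 CPM in KO 4 against 93.4 to 94.7 CPM in the other KO libraries.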

How the results depend on the processing

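Alternatives were the settings named here, and those that leave out WT 1 with the pooled KO libraries, leave out the pooled libraries in the summed levels, or cross the numbers were chosen after seeing the data. Of 161 alternative values of the summed levels, 159 kept their direction and moved by less than the SD between libraries. The other two were the fibroblast-like over tumor-like difference, 1.45 in place of 1.91 (log2) with cells of at least 500 UMIs, and the batch difference of whole libraries, 2.06 in place of 1.55 as a mean over cells. The SD limit was wide and counted the genotype difference of 0.11 in tumor-like cells, without WT 1 and the pooled KO libraries, as kept. Leaving out a batch 1 library could not move the endothelial-like and pericyte-like values, which rest on batch 2 alone. With free RNA subtracted, the endothelial-like over tumor-like difference was 1.91 in place of 1.83. This step could hardly lower it, since empty droplets had a lower sum than endothelial-like cells in all libraries of batch 2 but WT 1. The genotype difference in endothelial-like cells ran from 0.43, without WT 1 and the pooled KO libraries, to 1.47, with free RNA subtracted.

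Genes called between genotypes were 0 in whole libraries (2 by DESeq2, 242 without the low-count filter, 0 to 1 on leaving out a replicate, 1 without KO replicate 4), 0 in tumor-like cells (1 by DESeq2, 38 without the filter), 0 in endothelial-like cells (1 by DESeq2, 0 to 1 on leaving out a replicate, 1 without WT 3), 0 in pericyte-like cells (0 to 10, 10 without KO 4), 0 in fibroblast-like cells (0 to 2, 2 without WT 3 or KO 1) and 0 in T-like cells (0 to 1, 1 without WT 3). In myeloid-like cells 2 were called, 17 without the filter, 5 in batch 2 only, 4 at a mitochondrial limit of 20%, 0 to 5 on leaving out a replicate, and 0 each by DESeq2, with no batch term, without pooled KO libraries, at Leiden resolution 0.5 and with free RNA subtracted. The cause of these changes was not tested. Numbers 1 and 4 and batch 1 occur in both genotypes: the replicate block over these libraries gave 0 calls (470 genes at an unadjusted p under 0.05, 602 without the block), and the crossed pairing gave 2.

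Of 180 alternative fold changes of the 9 members in tumor-like cells, 166 kept their direction and side of the threshold, and 1, Fosb without the low-count filter, passed it. Without WT 1 and the pooled KO libraries, Fos was -0.068, Jun -0.083, Jund -0.027, Atf3 -0.19, Nr4a1 -0.074 and Ier2 -0.011. Without the pooled KO libraries Atf3 was -0.062 and Nr4a1 -0.029. Nr4a1 was -0.0015 without the filter and ran from -0.10 to 0.14 on leaving out a replicate, with -0.041 without KO 5+6. In endothelial-like cells members had fold changes in the fit without the filter, and none in the reported fit with it; Fos passed the filter in 8 other alternatives, at 0.60 (without WT 5) to 1.34 (without KO 4), and was not called. The batch ratio there and the pericyte-like class at resolution 0.5 gave no value for want of cells.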
